A study of Mus musculus with 20 samples.

Results

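The comparison described here set 5 libraries of cells treated with EIPA against 5 libraries treated with its vehicle, all at 0.2 mM glutamine, and covered every gene with at least 1 TPM in at least 5 of the series' 20 libraries. The libraries were taken by their labels, which make 10 of 20, and 12350 of 32285 genes passed the filter on low values. The cells were an immortalized primary murine line of cancer-associated fibroblasts (CAFs), the fibroblasts of the tumour stroma. For all 10 libraries the cells spent 32 h at 0.2 mM glutamine and received either EIPA at 25 uM or DMSO. The titles give 25 uM where the treatment protocol gives 25 mM, and the titles' value is used. No untreated culture without DMSO was compared, so every value below is relative to DMSO under glutamine shortage. Whether replicates were separate cultures is not stated in the labels, and every p-value below therefore rests on the spread among these libraries, which may be technical. The other 10 libraries came from 4 mM glutamine with DMSO or with IL-1a at 25 pg/mL and DMSO, and they enter only where they are named.

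EIPA, a derivative of the diuretic amiloride, blocks sodium-proton exchangers, which expel protons from the cytosol in return for sodium. It is widely used to stop macropinocytosis, the uptake of extracellular fluid into large vesicles that form from membrane ruffles and deliver their cargo to lysosomes. Cells short of glutamine can use that route to gain amino acids from extracellular protein. Sterol synthesis and the contractile apparatus hold many of the largest changes of this comparison, and the account below is about the other genes and programmes.

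Of the 12350 genes tested, 48.5% were called by limma at an adjusted p under 0.05, 27.4% higher and 21.1% lower with EIPA. Only 1.92% rose at least 2-fold and 1.23% fell at least 2-fold. In 34.6% of the genes the 5 EIPA and 5 vehicle values did not overlap. These shares are the background for every count of list members below, and the median change of all genes was 0.02 on the log2(TPM + 1) scale, the scale of all fold changes given here (± SE). TPM is per transcript length and sums to the same total in each library, so a value is a share of the RNA. In cultures measured in bulk, fewer cells of a kind and less RNA per cell cannot be told apart. Mitochondrially encoded mRNAs held 5.69% ± 0.630 of TPM with EIPA and 8.87% ± 0.276 with vehicle (SD, n = 5), a gap that raises the share of other genes. With these genes left out and TPM rescaled, the median change was -0.02 and 2775 genes were higher and 3131 lower, against 3383 and 2603.

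Marker lists describe the cells before the results. Of 15 fibroblast genes, 11 were tested, 5 rose and 5 fell. The collagens Col1a1, Col1a2 and Col3a1, Vim and Dcn were lower with EIPA, and Pdgfra, Pdgfrb and Pdpn were among those higher. Dcn had the largest p of these 5 lower genes (-0.91, limma adjusted p = 0.0275). Over the alternatives the numbers that rose and that fell were each 4 or 5. Only 4 fell with no filter on low values. The same held when single libraries were dropped, namely EIPA replicates 2, 3 and 5 and vehicle replicates 4 and 5. These counts do not show which call was lost. Fap, Lum, Dpt and Pi16 had means of at most 0.14 TPM and Thy1 means of 1.496 and 1.70 TPM, so several genes often used to mark fibroblasts were near 0. The epithelial list was at 0.0105 to 0.0135% of TPM with EIPA and 0.0138 to 0.0213% with vehicle. On it Epcam, Cldn4, Cldn7, Esrp1 and Ocln had means of at most 0.152 TPM, and Sox9 rose from 5.17 ± 0.567 to 14.7 ± 1.02 TPM (1.35 ± 0.08). Krt19, its most abundant gene, fell from 150 ± 28.2 to 92.4 ± 11.7 TPM (-0.68). The endothelial list was at 0.00152 to 0.00164% of TPM with EIPA and 0.00113 to 0.00147% with vehicle. Kdr of that list had means of 7.63 TPM with EIPA and 6.93 TPM with vehicle and did not pass the test, Egfl7 was higher (0.38 ± 0.13) but did not pass the test without EIPA replicate 5 or vehicle replicate 5, Vwf had means of 0.760 and 0.108 TPM in the same order, and the other 7 had means of at most 0.284 TPM. On the Schwann cell list Sox10 was listed at 0 in all 10 libraries. Mbp, at 27.6 and 31.5 TPM, was lower (-0.19 ± 0.07) but did not pass the test without EIPA replicate 5 or vehicle replicate 1 or 4. Of 3 mural cell genes tested Pdgfrb rose and Mcam (-1.11 ± 0.14) and Des (-0.49 ± 0.13) fell. Mesothelial genes such as Wt1 (34.1 ± 3.97 with EIPA and 67.7 ± 5.25 TPM with vehicle) were expressed. Of 10 tested mesothelial genes 6 fell, among them Upk3b (-1.75 ± 0.26) and Gpm6a (-1.79 ± 0.17), while Krt18 rose (0.99 ± 0.11), Krt18 and Krt19 being on the epithelial list too, and 3 did not pass the test. Their summed level was between 0.0420 and 0.0561% of TPM with EIPA and between 0.0606 and 0.0832% with vehicle, and Calb2 was listed at 0. Of 4 tested leukocyte genes 3 rose, Cd68 (1.40 ± 0.10), Cd14 (1.04 ± 0.15) and Csf1r (0.52 ± 0.12, and 2.05 with a pseudocount of 0.1), with 7 of the 12 on that list at 0 in every library and a summed level of at most 0.00260% of TPM. Ptprc, Cd3e, Adgre1 and Itgam were among those at 0. The part of these other cell types in the results below was not tested.

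Vehicle replicate 5 was the library most often apart from the rest of its group, and without it 5743 genes were called, against 5986 with it. Where no p is given, a gene said to rise or fall had an adjusted p of at most 0.045.

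Promoters of 4 genes that the results turn on are shown first, chosen as examples that hold the motifs by which the metal and lysosome programmes are known. They come from the RefSeq promoter table for GRCm38.p6, each from 250 bases before to 50 bases after the gene's start, 5′ to 3′ on the gene's strand, with motif matches on either strand in capitals. Capitals in the metallothionein promoters (Mt1 on the plus strand at chr8:94178839-94179138, Mt2 on the plus strand at chr8:94172368-94172667) mark TGCNCNC, a loose form of the core of the metal response element bound by MTF1. That core has A or G as its 4th letter, where the searched pattern allows any base. Capitals in the promoters of Ctsd (minus strand, chr7:142387778-142388077) and Gla (minus strand, chrX:134600956-134601255) mark CACGTG, the E-box inside the element bound by TFEB and its relatives.
Mt1: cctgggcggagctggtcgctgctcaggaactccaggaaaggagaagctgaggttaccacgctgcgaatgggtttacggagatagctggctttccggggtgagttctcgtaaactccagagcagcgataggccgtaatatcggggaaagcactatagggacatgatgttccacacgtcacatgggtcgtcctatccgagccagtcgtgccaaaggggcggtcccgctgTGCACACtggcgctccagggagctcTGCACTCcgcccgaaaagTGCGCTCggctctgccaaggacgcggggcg
Mt2: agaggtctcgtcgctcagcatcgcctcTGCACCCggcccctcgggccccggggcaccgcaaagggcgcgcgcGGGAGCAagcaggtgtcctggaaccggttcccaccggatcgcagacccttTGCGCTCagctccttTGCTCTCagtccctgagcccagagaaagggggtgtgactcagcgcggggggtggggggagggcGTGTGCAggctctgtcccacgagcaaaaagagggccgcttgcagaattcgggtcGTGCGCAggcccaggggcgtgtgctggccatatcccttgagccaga
Ctsd: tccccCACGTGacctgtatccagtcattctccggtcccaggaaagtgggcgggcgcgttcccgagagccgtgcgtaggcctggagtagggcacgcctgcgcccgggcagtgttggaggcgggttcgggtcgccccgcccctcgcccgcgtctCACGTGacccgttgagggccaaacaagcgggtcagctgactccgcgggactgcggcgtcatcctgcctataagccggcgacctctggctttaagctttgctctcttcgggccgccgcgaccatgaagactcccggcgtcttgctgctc
Gla: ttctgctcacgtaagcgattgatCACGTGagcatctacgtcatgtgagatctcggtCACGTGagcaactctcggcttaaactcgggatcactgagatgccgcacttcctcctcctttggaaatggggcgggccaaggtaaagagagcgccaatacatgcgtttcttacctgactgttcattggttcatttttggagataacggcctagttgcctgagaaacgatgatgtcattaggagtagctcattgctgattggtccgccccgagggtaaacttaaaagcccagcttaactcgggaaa
The loose metal pattern occurred 3 times in the Mt1 promoter and 6 times in that of Mt2. In Mt2 the matches TGCTCTC and GGGAGCA, the latter read on the other strand, have T as that 4th letter. Among the promoters of 9644 tested genes, 64.6% held it at least once, 12.1% at least 3 times and 0.41% at least 6 times. Of the genes of zinc and copper handling 16 of 21 held it (76.2%), and of those that rose 5 of 8 (62.5%). The E-box occurred 2 times in the promoter of Ctsd and 2 times in that of Gla, and 12.1% of the 9644 promoters held at least 1 and 1.34% at least 2. Of the lysosomal hydrolase genes with a promoter in the table, 11 of 38 held an E-box (28.9%), as did 4 of 14 V-ATPase genes (28.6%) and 5 of 25 lysosomal membrane genes. Other genes described below had 0 matches in this window, Gpnmb, Neu1 and Rragd for the E-box and Osgin1 and Nqo1 for the antioxidant motif given with the NRF2 genes. These are matches of letters in a short window and not measured binding.

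The metallothioneins, abundant already in vehicle, rose several-fold. They are small cysteine-rich proteins that hold zinc and copper. Mt2 was at 2406, 2498, 2987, 1616 and 1583 TPM in EIPA replicates 1 to 5 and at 255, 257, 245, 222 and 203 TPM in vehicle replicates 1 to 5, with no overlap (3.19 ± 0.17, limma adjusted p = 5.8e-12). Mt1 was at 2045, 2196, 2538, 1267 and 1421 TPM with EIPA and 432, 417, 441, 384 and 382 TPM with vehicle, again with every EIPA library above every vehicle library (2.15 ± 0.14, adjusted p = 2.5e-10). In mm10 the pair lies side by side, with Mt2 at chromosome 8 from 94172664 to 94173568 on the plus strand and Mt1 at chromosome 8 from 94179082 to 94180327 on the plus strand, and reads of such similar transcripts can be shared between them. Slc30a1, the zinc exporter of the plasma membrane, rose from 10.8 ± 1.08 to 19.9 ± 4.15 TPM (0.81 ± 0.11), and Mtf1, the zinc-sensing factor itself, was 0.28 ± 0.09 higher, a call lost under quantile normalisation (0.20). The zinc importer Slc39a10 fell (-0.98 ± 0.13) and Slc39a14, an importer of zinc and iron, rose (0.27 ± 0.07). Of 24 tested genes of zinc and copper handling, 9 rose and 3 fell, with a median of 0.01. Without the mitochondrially encoded genes 7 rose and 4 fell, and the median was -0.03.

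**Figure D1:**
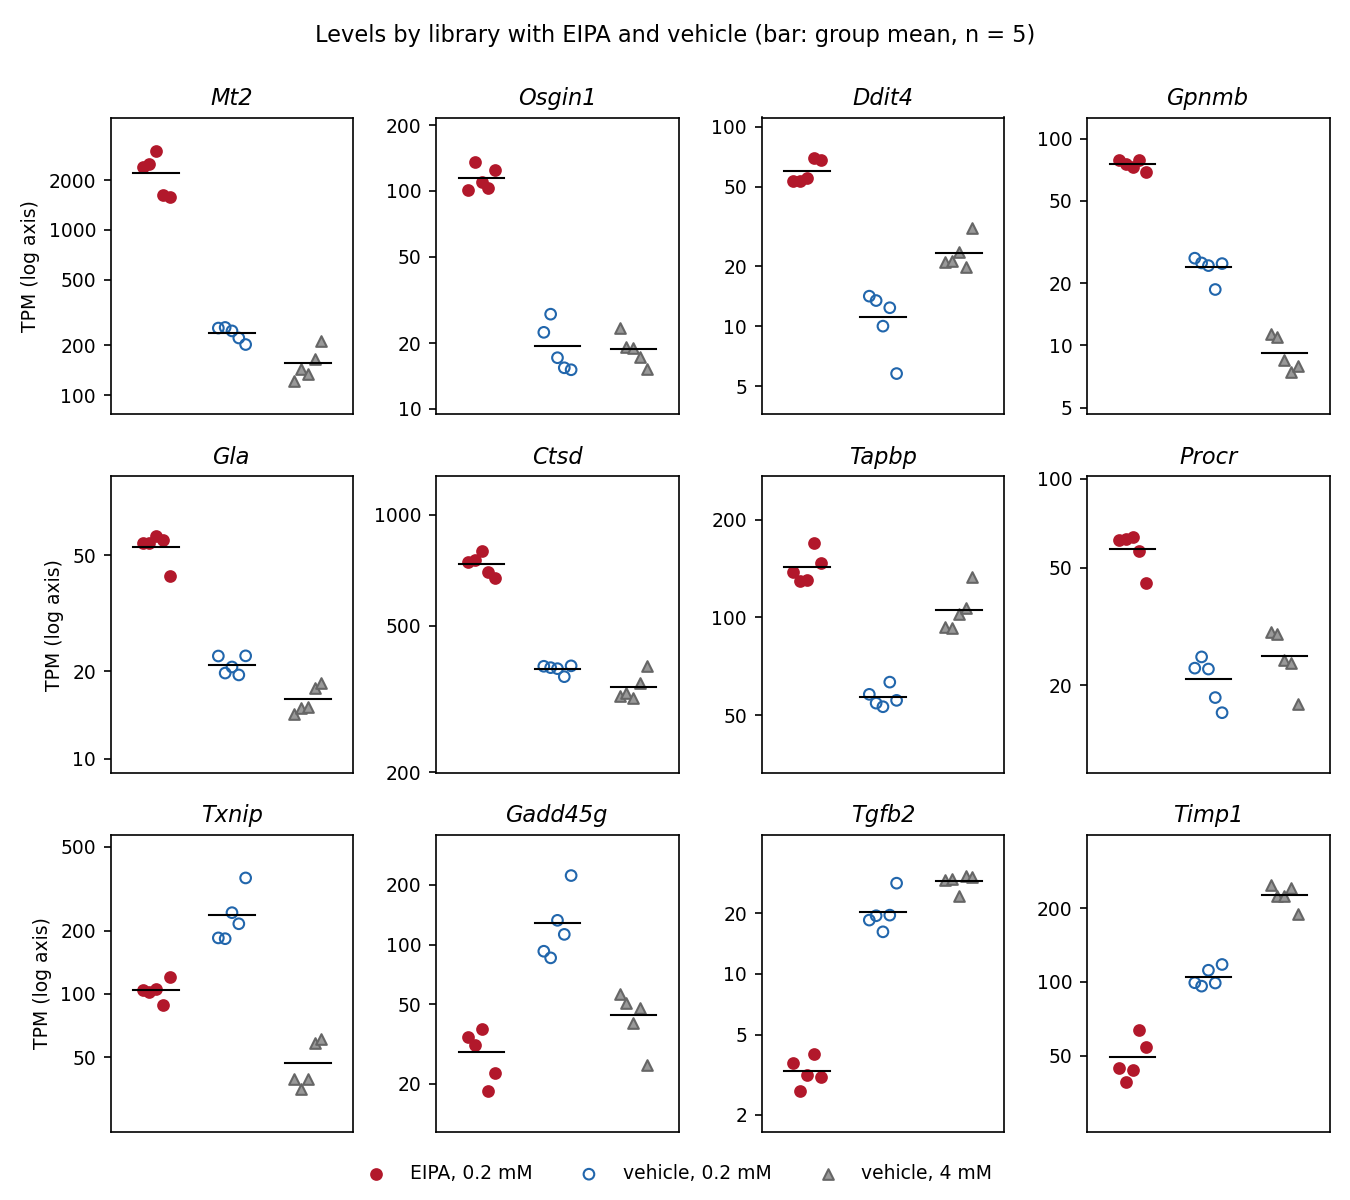
Level in TPM (log axis) of 12 genes in each of the 5 EIPA libraries (filled circles), 5 vehicle libraries at 0.2 mM glutamine (open circles) and 5 vehicle libraries at 4 mM glutamine (grey triangles), with a bar at each group's mean. At 0.2 mM the EIPA and vehicle points do not overlap in any of the 12 genes.

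Iron and haem genes moved to higher levels as a group. Of 28 tested, 16 rose and 1 fell (median 0.30). The transferrin receptor Tfrc rose from 30.3 ± 4.07 to 57.6 ± 7.12 TPM (0.91 ± 0.17), and the ferrireductase of endosomes Steap3 (1.17 ± 0.11) and the mitochondrial iron importer Slc25a37 (1.08 ± 0.11) rose with it. Both subunits of the iron store ferritin rose, Fth1 to 4027 ± 109 TPM from 2512 ± 266 (0.69 ± 0.08) and Ftl1 to 5978 ± 420.3 from 4081 ± 312 (0.55 ± 0.07, and 0.91 under quantile normalisation). Uptake and storage genes thus rose side by side. Alas1, the rate-limiting enzyme of haem synthesis (0.75 ± 0.10), also rose. Cpox, a late enzyme of haem synthesis, was the member that fell (-0.27 ± 0.07).

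Genes of the NRF2 response, which defends against oxidants and electrophiles, rose nearly throughout. Of 39 tested, 33 rose and 2 fell (median 0.42). Osgin1 was at 101, 136, 110.3, 103 and 124 TPM with EIPA and 22.5, 27.2, 17.2, 15.4 and 15.1 TPM with vehicle (2.53 ± 0.15, adjusted p = 2.6e-11), a gap much wider than the spread within either group. The quinone reductase Nqo1 (1.24 ± 0.27), the glutathione transferases Gstm1 (1.05 ± 0.11) and Gsta4 (1.02 ± 0.13), the cystine importer Slc7a11 (0.75 ± 0.18) and Esd, an esterase (1.20 ± 0.13), rose less. Gss, glutathione synthetase, fell (-0.61 ± 0.07). The core of the antioxidant response element, TGACNNNGC on either strand, was in the promoters of 11 of 32 NRF2 genes (34.4%) and of 17% of all tested genes. Enzymes of the pentose phosphate pathway and others that make NADPH split, with 8 of 21 higher and 7 lower (median -0.03). Idh1, cytosolic isocitrate dehydrogenase, rose from 17.7 ± 1.16 to 60.2 ± 11.7 TPM (1.69 ± 0.13), and G6pdx (0.56 ± 0.08), Pgd (1.34 ± 0.10), Taldo1 (0.58 ± 0.06) and Tkt (0.63 ± 0.04) of the pentose phosphate pathway rose. Me2 (-0.51 ± 0.05) and Aldh1l2 (-0.53 ± 0.15), both mitochondrial, were among those that fell, and the lowest value of the list was -0.74.

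The sodium-proton exchangers, the family that EIPA blocks, were read at the level of their mRNA. Of 11 sodium-proton exchanger genes in the table, 6 passed the filter, of which 3 were higher, 1 was lower and 2 were not called (median 0.19). The number that fell was 0 to 2 over the alternatives, and the values of 4 genes are given here. Slc9a5, a member most studied in brain, was at 9.21, 10.7, 9.14, 9.70 and 9.06 TPM with EIPA and 6.93, 5.94, 6.03, 5.99 and 5.59 TPM with vehicle (0.57 ± 0.10, adjusted p = 0.00013). Slc9a9 of endosomes, near 1 TPM, was called lower (-0.32 ± 0.12), but the call was lost under 8 of 19 alternatives, among them a pseudocount of 0.1 (-0.57). The organellar exchangers Slc9a7 (0.15 ± 0.13, adjusted p = 0.37) and Slc9a8 (-0.23 ± 0.10, adjusted p = 0.056) did not pass the test, although Slc9a8 was called lower under 7 alternatives, among them median-of-ratios scaling (-0.26).

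Bicarbonate carriers and carbonic anhydrases, the other arm of pH control, split by protein family among the members named here. Carbonic anhydrases interconvert carbon dioxide and bicarbonate. Car6, the secreted form, was the most abundant, at 81.2, 71.5, 83.5, 106 and 114 TPM with EIPA and 54.7, 54.1, 63.7, 68.02 and 56.6 TPM with vehicle (0.59 ± 0.24, adjusted p = 0.045). The call of Car6 was lost under 13 of 19 alternatives, among them median-of-ratios scaling (0.56). Car15 (0.86 ± 0.15), Car7 (0.57 ± 0.10) and cytosolic Car13 (0.32 ± 0.08) rose. The anion exchangers Slc26a11 (0.80 ± 0.14), Slc26a2 (0.64 ± 0.08) and Slc26a6 (0.59 ± 0.15) rose. The sodium-bicarbonate cotransporters Slc4a4 (-0.88 ± 0.09) and Slc4a7 (-0.71 ± 0.08), which load the cell with base, and the chloride-bicarbonate exchanger Slc4a2 (-0.21 ± 0.05) fell. In all 9 of 15 rose and 3 fell (median 0.55). With a mean of at least 5 TPM, 4 of 8 rose and 3 fell (median 0.11). Car6 was also far lower in the 4 mM vehicle libraries, at 2.46 ± 0.922 TPM.

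Other ion carriers were mixed, with 6 of 20 higher and 5 lower (changes from -0.98 to 1.14). The beta subunits of the sodium pump, Atp1b1 (0.86 ± 0.11) and Atp1b3 (0.68 ± 0.09), rose, as did Slc8b1, the mitochondrial sodium-calcium exchanger (1.14 ± 0.10). Slc5a3, outside that list, imports myo-inositol with sodium and is an osmotic response gene. It stood at 21.8, 22.3, 18.0, 23.5 and 17.1 TPM with EIPA and 5.53, 4.97, 3.92, 5.09 and 5.37 TPM with vehicle (a ratio of means of 4.13; 1.85 ± 0.16, adjusted p = 8.8e-09). Slc24a3, a potassium-dependent sodium-calcium exchanger (-1.003 ± 0.11), and Slc1a6, a glutamate carrier that went from 6.32 ± 3.20 to 0.580 ± 0.174 TPM (-2.11 ± 0.21), fell. Both are outside that list too.

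Genes of the macropinocytosis machinery itself went both ways. Of 44 tested genes, 15 rose and 8 fell (median 0.05), but 15 and 13 when TPM were rescaled without mitochondrially encoded genes. Eps8, an actin capping and bundling protein of ruffles, rose from 37.2 ± 3.39 to 95.6 ± 19.2 TPM (1.32 ± 0.10). Rab20, a GTPase of macropinosomes and phagosomes, rose (0.84 ± 0.13), as did Pikfyve, the lipid kinase that lets macropinosomes mature (0.47 ± 0.09), and the catalytic subunit Pik3ca of PI3-kinase (0.41 ± 0.08). Its relative Pik3cb (-0.54 ± 0.10), the actin regulator Wasf2 (-0.31 ± 0.06) and Anxa2 (-0.70 ± 0.07), a membrane-binding annexin, fell. Genes of clathrin and caveolar uptake leaned lower, with 8 of 30 higher and 13 lower. The caveolar coat genes Cav1 (-0.37 ± 0.09), Cavin1 (-0.28 ± 0.04) and Cavin3 (-1.11 ± 0.13) and the clathrin adaptor subunits Ap2a2 (-0.59 ± 0.07) and Ap2m1 (-0.45 ± 0.03) fell, while Pacsin3, a membrane-bending protein, rose (0.70 ± 0.10).

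Genes of the lysosome, where that route ends, rose across its parts. Of 48 tested hydrolases and their activators, 37 rose and 1 fell (median 0.42), and their share of all TPM was 0.753% ± 0.0293 with EIPA and 0.497% ± 0.0131 with vehicle (SD, n = 5). Of 29 lysosomal membrane and lipid transfer proteins, 20 rose and 3 fell (median 0.39). Of 19 subunits of the V-ATPase, the proton pump that acidifies lysosomes, 11 rose and 1 fell (median 0.22). Ctsd, the aspartic protease whose promoter is shown above, was at 746, 755, 795, 699 and 672 TPM with EIPA and 388, 384, 382, 363 and 389 TPM with vehicle (0.94 ± 0.06, adjusted p = 2.1e-10). Gla, alpha-galactosidase, was at 55.2, 55.2, 58.4, 56.5 and 42.4 TPM with EIPA and 22.5, 19.7, 20.6, 19.4 and 22.6 TPM with vehicle (1.31 ± 0.09, adjusted p = 8.0e-10). In both genes the lowest EIPA library lay above the highest vehicle library. Other hydrolases that rose were Ctsb (0.98 ± 0.07), Manba (0.78 ± 0.10), Neu1 (0.77 ± 0.06) and Arsa (0.76 ± 0.07), together with Hgsnat of heparan sulfate breakdown (0.98 ± 0.07). Ids, the iduronate sulfatase, fell (-0.54 ± 0.05).

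Among the lysosomal membrane genes Gpnmb, a glycoprotein known from lysosomal storage, had the largest rise, from 23.8 ± 3.02 to 75.1 ± 4.20 TPM (1.62 ± 0.12). Cd68, a lysosomal glycoprotein best known in macrophages, rose (1.40 ± 0.10) in libraries where Ptprc, Adgre1 and Itgam were listed at 0. The cholesterol exporters Npc1 (0.68 ± 0.06) and Npc2 (0.88 ± 0.08) and the cystine exporter Ctns (0.73 ± 0.10) rose. Scarb2, the receptor that carries glucocerebrosidase to lysosomes (-0.60 ± 0.11), and Tmem175, a lysosomal potassium and proton channel (-0.53 ± 0.16), fell. Of the pump, Tcirg1 (0.66 ± 0.09), Atp6ap2 (0.56 ± 0.06) and the catalytic subunit Atp6v1a (0.37 ± 0.06) rose and Atp6v0e2 (-0.51 ± 0.13) fell.

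The levels in the vehicle libraries at 4 mM glutamine stand beside these values. Gpnmb was at 9.23 ± 1.78 TPM there, Gla at 16.0 ± 1.73, Ctns at 14.6 ± 2.44 and Atp6v1a at 97.7 ± 5.37. Ctsd was at 341 ± 29.2 TPM, and all 5 were below their means with vehicle at 0.2 mM. The EIPA libraries were thus the highest of the 3 groups in all 5 genes by mean.

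mTORC1 is the kinase complex that senses amino acids at the lysosome, and TFEB is the factor it holds out of the nucleus. Ddit4, an inhibitor of mTORC1, was at 53.8, 53.6, 55.7, 69.6 and 68.1 TPM with EIPA and 14.2, 13.4, 10.01, 12.4 and 5.79 TPM with vehicle, with no overlap (2.38 ± 0.20, adjusted p = 7.7e-09). Rragd, a Rag GTPase that TFEB family factors are known to induce, rose from 7.06 ± 1.15 to 14.0 ± 2.16 TPM (0.90 ± 0.11) and was at 0.228 ± 0.0327 TPM in the 4 mM vehicle libraries. The Ragulator subunits Lamtor5 (0.46 ± 0.06) and Lamtor3 (0.26 ± 0.07) and Flcn, which acts on Rragc and Rragd (0.26 ± 0.07), rose, while Tfeb itself fell (-0.45 ± 0.10). In all 13 of 33 rose and 3 fell, or 13 and 5 without the mitochondrially encoded genes. Of 44 autophagy genes 19 rose and 5 fell (median 0.17). Map1lc3b, the LC3 protein of autophagosomes (0.61 ± 0.09), Wipi1 (0.64 ± 0.07), Atg7 (0.59 ± 0.06) and the mitophagy receptors Bnip3 (0.60 ± 0.11) and Bnip3l (0.48 ± 0.09) rose, and Atg3, the enzyme that attaches LC3 to lipid, fell (-0.67 ± 0.05).

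**Figure D2:**
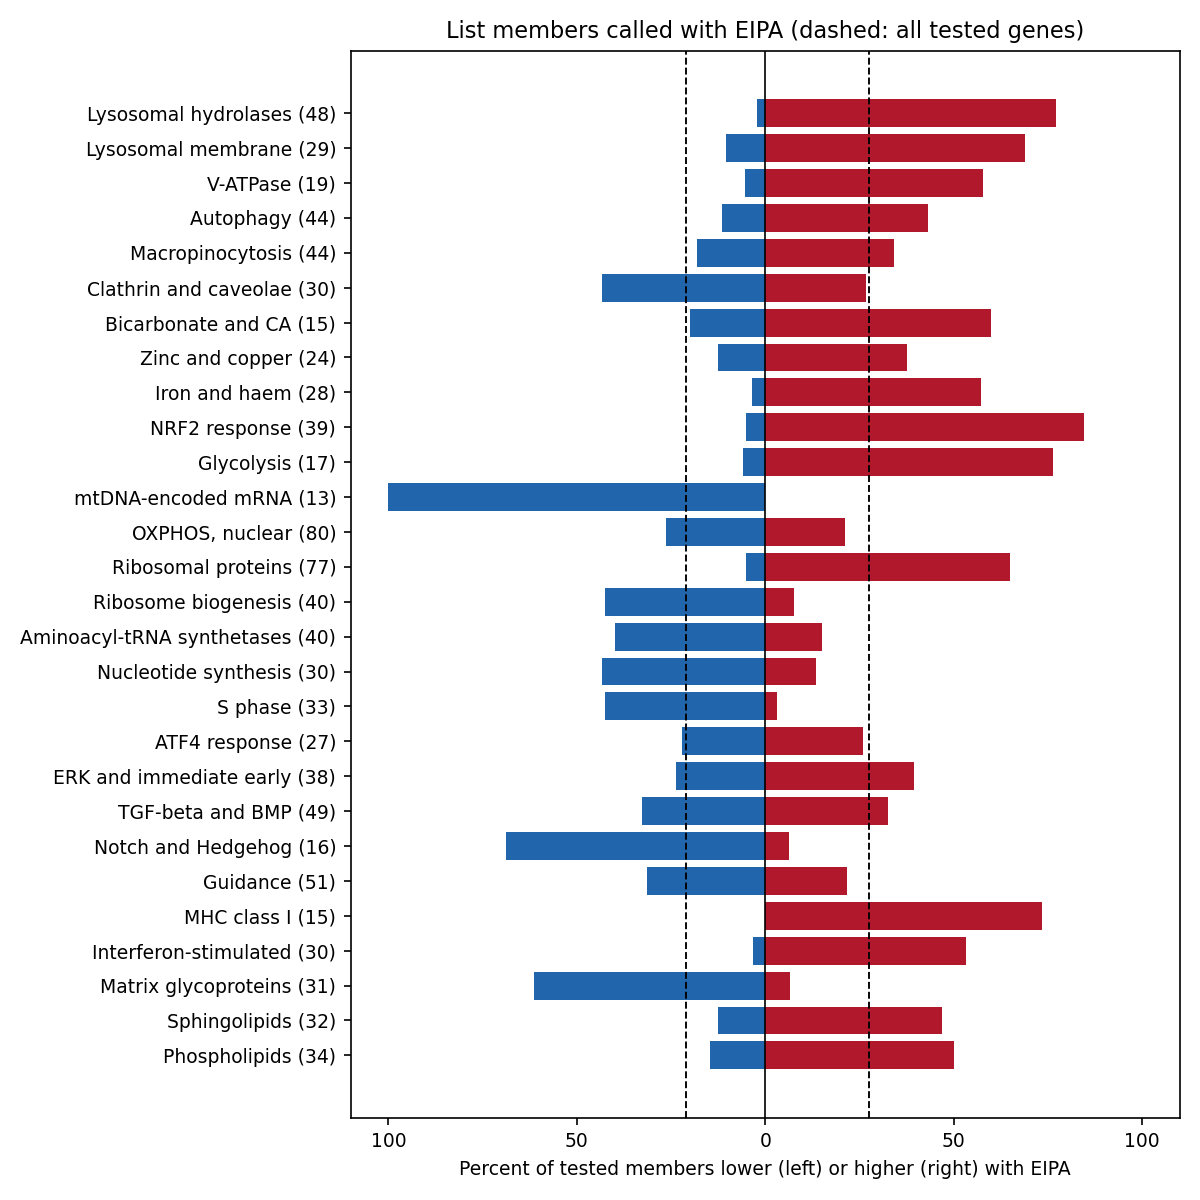
Percent of the tested members of 28 gene lists that rose (bars to the right) or fell (bars to the left) with EIPA, with the number tested in brackets and dashed lines at the shares of all 12350 tested genes (27.4% higher, 21.1% lower). Lysosomal, NRF2 and MHC class I genes lie far to the right and mitochondrially encoded, matrix glycoprotein and Notch or Hedgehog genes far to the left.

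Genes of glycolysis rose in the main. Of 17 enzymes 13 rose and 1 fell (median 0.42). Pfkl, an isoform of the committing enzyme phosphofructokinase, rose from 14.6 ± 2.06 to 31.4 ± 3.32 TPM (1.05 ± 0.11), and Hk2 (0.48 ± 0.08), Pkm (0.47 ± 0.08) and Ldha (0.44 ± 0.07) rose less. The glucose transporter Slc2a1 (1.01 ± 0.11) and the lactate exporter Slc16a3 (1.15 ± 0.09) rose to 39.5 ± 2.84 and 33.2 ± 1.97 TPM, where the 4 mM vehicle libraries had 44.7 ± 4.98 and 64.3 ± 4.58 TPM. Both subunits of the mitochondrial pyruvate carrier fell, Mpc1 (-0.27 ± 0.05) and Mpc2 (-0.24 ± 0.07). Txnip restrains glucose uptake and is itself induced by glucose phosphates. It was at 104, 102, 105, 88.8 and 120.4 TPM with EIPA and 185, 183, 243, 215 and 356 TPM with vehicle (-1.14 ± 0.19, adjusted p = 5.0e-05). Its relative Arrdc4 fell as well (-0.48 ± 0.11).

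All 13 mitochondrially encoded mRNAs fell, with a median of -0.72. Their summed share of TPM was 5.18, 5.67, 5.40, 5.43 and 6.78% in EIPA replicates 1 to 5 and 8.55, 8.95, 8.96, 8.66 and 9.24% in vehicle replicates 1 to 5, which do not overlap. The nuclear-encoded subunits of the same complexes went both ways, with 17 of 80 higher and 21 lower (median -0.05). Of 78 mitochondrial ribosomal proteins 16 rose and 17 fell, or 12 and 23 in the fit without the mitochondrially encoded genes. Of 34 genes that keep and transcribe mitochondrial DNA 7 rose and 9 fell (median 0.01, and -0.04 in that fit). Tfb1m, a methyltransferase of mitochondrial rRNA (-0.62 ± 0.10), Tefm, the elongation factor (-0.45 ± 0.07), and Elac2, which trims mitochondrial tRNA (-0.55 ± 0.07), fell. The coactivator Ppargc1a, a driver of mitochondrial gene programmes, rose from 1.75 ± 0.400 to 5.58 ± 0.489 TPM (1.27 ± 0.12).

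**Figure D3:**
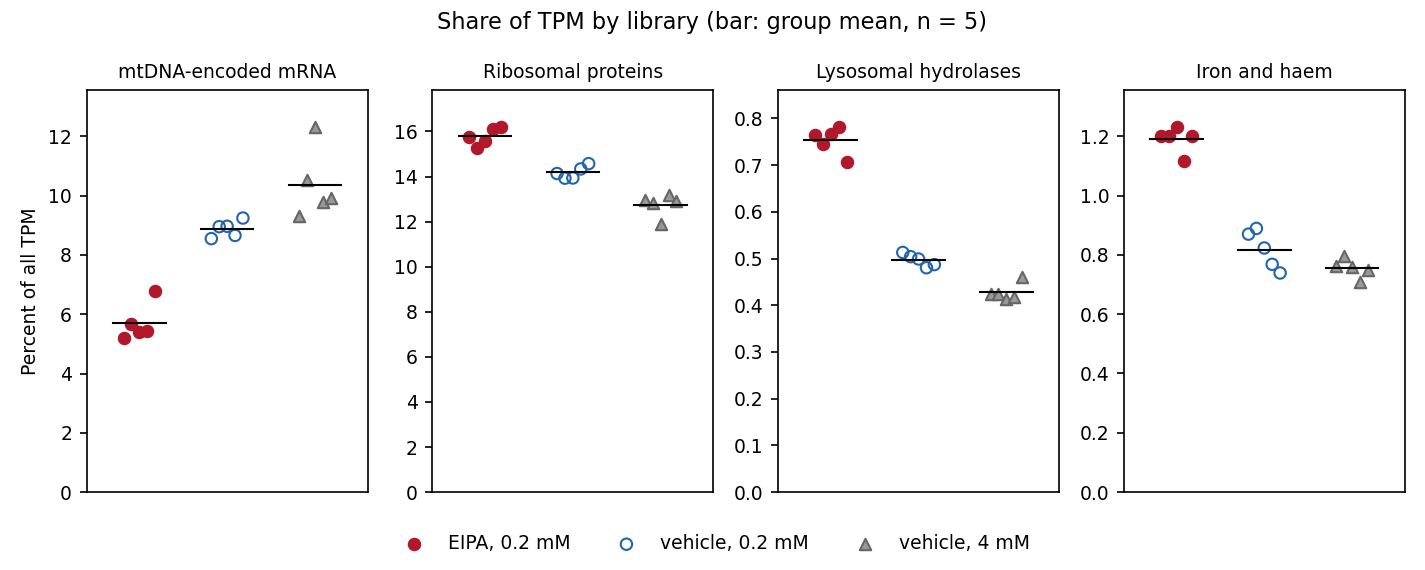
Percent of all TPM held by 4 gene lists in each of the 5 EIPA libraries (filled circles), 5 vehicle libraries at 0.2 mM glutamine (open circles) and 5 vehicle libraries at 4 mM glutamine (grey triangles), with a bar at each mean. With EIPA the mitochondrially encoded share is below every 0.2 mM vehicle library and the other 3 shares are above.

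Ribosomal protein genes and the genes that build ribosomes moved apart. Of 77 cytosolic ribosomal protein genes 50 rose and 4 fell (median 0.17), and they held 15.8% ± 0.386 of TPM with EIPA and 14.2% ± 0.276 with vehicle. Under quantile normalisation 33 rose and 7 fell. Of 40 ribosome biogenesis genes 3 rose and 17 fell (median -0.19). The box C/D core proteins Nop56 (-0.60 ± 0.08) and Nop58 (-0.40 ± 0.08), the assembly factor Bop1 (-0.45 ± 0.08) and Polr1a, the large subunit of RNA polymerase I (-0.41 ± 0.08), fell. Myc, a driver of that programme, fell from 312 ± 80.0 to 203 ± 24.2 TPM (-0.59 ± 0.15). Of 40 aminoacyl-tRNA synthetases and partners, 6 rose and 16 fell, Qars, which charges tRNA with glutamine, rising most (0.66 ± 0.06) and Mars, for methionine, falling most (-0.48 ± 0.08).

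Genes of nucleotide synthesis leaned lower. Of 30 genes of nucleotide synthesis 4 rose and 13 fell (median -0.12). Rrm1, the large subunit of ribonucleotide reductase, was at 106, 109, 109, 118 and 123.1 TPM with EIPA and 158, 172, 214, 189 and 319 TPM with vehicle (-0.84 ± 0.13, adjusted p = 1.9e-05). Its partner Rrm2 (-0.51 ± 0.10), Prps1, which makes the ribose donor PRPP (-0.67 ± 0.06), Ctps, CTP synthase (-0.58 ± 0.07), and Adsl of purine synthesis (-0.55 ± 0.06) fell too. Ctps uses glutamine as its nitrogen donor. Of 13 polyamine and arginine genes 4 rose and 6 fell. Odc1, the rate-limiting enzyme (-0.58 ± 0.14), and the synthases Srm (-0.56 ± 0.08) and Sms (-0.33 ± 0.08) fell, and the catabolic enzymes Sat1 (0.73 ± 0.09) and Smox (0.51 ± 0.09) rose. Of 33 S phase genes 1 rose and 14 fell (median -0.13), with Clspn (-0.54 ± 0.08), Ccne2 (-0.50 ± 0.12) and E2f1 (-0.35 ± 0.05) among those that fell. Mitosis genes were mixed, 6 higher and 11 lower of 28.

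The response to amino acid shortage, which runs through the factor ATF4, had members on both sides. Of 27 ATF4 genes 7 rose and 6 fell (median 0.08), or 5 and 7 without the mitochondrially encoded genes, and without vehicle replicate 5 the median was -0.01. Chac1, a glutathione-degrading ATF4 target, rose from 78.3 ± 14.2 to 129 ± 16.7 TPM (0.73 ± 0.17). Nupr1, a stress-induced chromatin protein (-0.62 ± 0.10), the factor Atf5 (-0.40 ± 0.09) and the proline enzyme Pycr1 (-0.92 ± 0.14) fell, and Nupr1 was at 415 ± 11.2 TPM with vehicle and 48.8 ± 6.89 in the 4 mM vehicle libraries. Among amino acid transporters, 8 of 28 rose and 6 fell. Slc38a2, a carrier of glutamine and other neutral amino acids (0.47 ± 0.04), and the lysosomal carrier Slc36a1 (0.48 ± 0.10) rose. Slc7a5, the leucine carrier (-0.50 ± 0.10), and its heavy chain Slc3a2 (-0.36 ± 0.07) fell. Glutamine synthetase Glul averaged 15.4 ± 1.15 TPM with EIPA and 14.3 ± 0.993 TPM with vehicle and did not pass the test (adjusted p = 0.52). Asl of arginine synthesis rose (0.66 ± 0.11) and Glud1, glutamate dehydrogenase, fell (-0.33 ± 0.08).

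Signalling genes downstream of growth factor receptors were found on both sides. Of 38 ERK target, feedback and immediate early genes 15 rose and 9 fell, with a median of -0.01. Dusp4, a nuclear phosphatase of ERK, was at 333, 367, 358, 351 and 299 TPM with EIPA and 155, 164, 147, 129 and 114 TPM with vehicle (1.27 ± 0.19, adjusted p = 1.4e-05). The ETS factors Etv4 (1.80 ± 0.21) and Etv5 (1.68 ± 0.17) and the AP-1 subunit Fosl1 (1.19 ± 0.29) rose, while other AP-1 and stress-kinase genes fell: Jun (-0.90 ± 0.11), Jund (-0.67 ± 0.05), Dusp1 (-1.01 ± 0.16) and Dusp8 (-0.95 ± 0.07). The receptors Fgfr1 (0.98 ± 0.08) and Flt4 (0.84 ± 0.16) rose and the collagen receptor Ddr1 fell (-0.79 ± 0.09). Gadd45 proteins are stress sensors that slow the cell cycle. Gadd45g was at 34.3, 31.1, 37.4, 18.3 and 22.5 TPM with EIPA and 92.5, 85.7, 132, 112 and 222 TPM with vehicle (-2.09 ± 0.26, adjusted p = 1.6e-06), and Gadd45b fell with it (-1.15 ± 0.17).

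In the TGF-beta and BMP family, ligands and antagonists were found on both sides. Tgfb2, a TGF-beta ligand, was at 3.61, 2.63, 3.15, 3.98 and 3.07 TPM with EIPA and 18.5, 19.5, 16.2, 19.6 and 28.3 TPM with vehicle, with no overlap (-2.30 ± 0.12, adjusted p = 3.8e-12). Inhba, the subunit of activin A, fell from 84.5 ± 14.7 to 33.1 ± 3.13 TPM (-1.31 ± 0.22), and Nog, the BMP antagonist noggin, from 8.50 ± 3.20 to 1.29 ± 0.335 TPM (-2.01 ± 0.24). Bmper, an extracellular BMP modulator (-0.94 ± 0.08), Fstl1 (-0.77 ± 0.10) and the target Id2 (-0.97 ± 0.15) fell. Grem1, another BMP antagonist, rose from 281 ± 42.9 to 477 ± 32.6 TPM (0.77 ± 0.23), and Tgfb1 (0.39 ± 0.10) and Id1 (0.60 ± 0.13) rose. Over the 49 genes tested 16 rose and 16 fell.

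Notch and Hedgehog genes lay lower, with 11 of 16 falling and 1 rising (median -0.32). The Notch ligand Jag1 was at 5.80, 5.31, 5.18, 8.52 and 7.64 TPM with EIPA and 14.2, 13.2, 14.8, 18.3 and 24.9 TPM with vehicle (-1.26 ± 0.18, adjusted p = 6.9e-06). Lfng, which modifies Notch receptors (-1.46 ± 0.14), and the Notch target Hes1 (-0.55 ± 0.15) fell. Gas1 and Cdon are coreceptors for Hedgehog ligands. Gas1 fell from 35.1 ± 12.8 to 9.92 ± 3.50 TPM (-1.71 ± 0.30) and Cdon from 41.8 ± 2.78 to 20.04 ± 4.19 TPM (-1.05 ± 0.14), and both were higher again in the 4 mM vehicle libraries, at 197 ± 68.4 and 73.4 ± 12.2 TPM. Smo, the Hedgehog signal transducer, fell slightly (-0.23 ± 0.04). In the Wnt list 6 of 36 rose and 12 fell, and Wnt11, a ligand of the branch that does not act through beta-catenin, fell from 13.3 ± 3.81 to 1.79 ± 0.411 TPM (-2.33 ± 0.18), as did Wnt5a (-0.50 ± 0.10), Wnt9a (-0.67 ± 0.12) and the receptor Fzd2 (-0.59 ± 0.12).

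**Figure D4:**
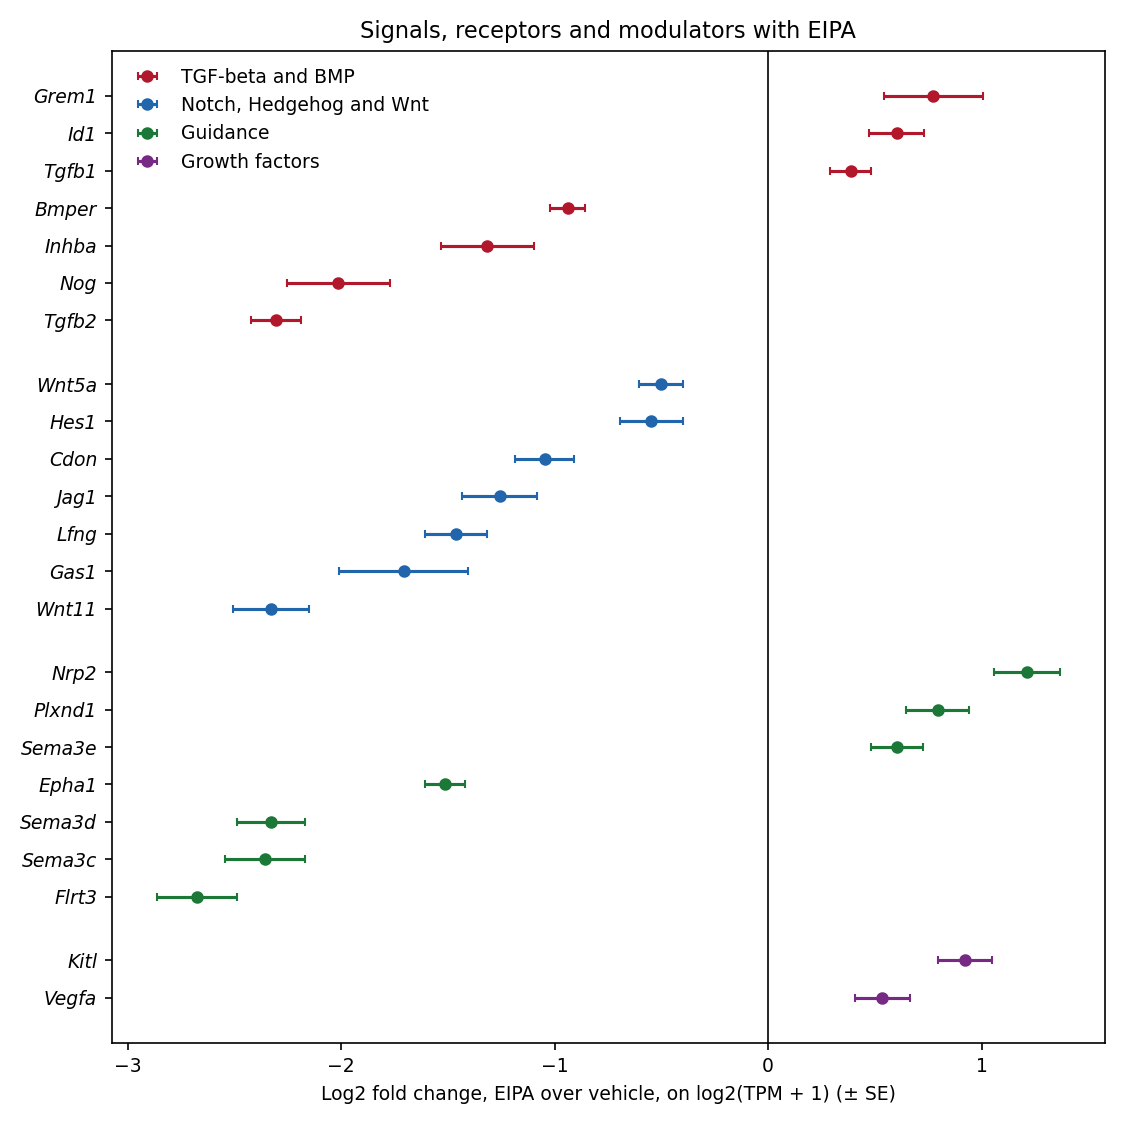
Log2 fold change with EIPA, on the log2(TPM + 1) scale, of 23 genes for signals, their receptors or modulators and the targets Id1 and Hes1. The SE of the fit is a bar, and points are ordered by value within 4 groups. The growth factor group shows only Kitl and Vegfa, where of 37 growth factor genes tested 11 were higher and 11 lower. Grem1, Kitl, Vegfa and Nrp2 lie to the right of 0, and Flrt3, Sema3c, Sema3d, Wnt11, Tgfb2 and Nog lie at or below -2.

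Guidance cues had some of the largest falls of the comparison. Flrt3, an adhesion protein that binds latrophilins and Unc5 receptors, was at 2.88, 2.04, 2.51, 2.67 and 2.53 TPM with EIPA and 16.9, 15.7, 22.04, 22.6 and 34.0 TPM with vehicle (-2.67 ± 0.19, adjusted p = 5.1e-10). Sema3c, a secreted semaphorin, was at 6.10, 3.39, 5.07, 8.80 and 6.43 TPM with EIPA and 30.6, 26.5, 28.4, 36.3 and 50.03 TPM with vehicle (-2.36 ± 0.19, adjusted p = 2.9e-09). Its relative Sema3d fell as far (-2.33 ± 0.16), and Epha1, an ephrin receptor, fell (-1.51 ± 0.09). Nrp2, a coreceptor for semaphorins and VEGFs (1.21 ± 0.15), Sema3e (0.60 ± 0.12) and its receptor Plxnd1 (0.79 ± 0.15) rose. Of 51 guidance genes 11 rose and 16 fell. Growth factors were as mixed, 11 higher and 11 lower of 37. The neurotrophin Bdnf (-0.98 ± 0.13) and the EGF family ligand Nrg1 (-0.65 ± 0.17) fell, and the angiogenic factors Vegfa (0.53 ± 0.13) and Vegfc (0.67 ± 0.10) and Kitl, the ligand of Kit (0.92 ± 0.13), rose.

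Genes of antigen presentation by MHC class I rose. Of 15 tested genes 11 rose and 0 fell (median 0.71). B2m, the invariant light chain, was at 1063, 939, 999.9, 1137 and 945 TPM with EIPA and 573, 526, 535, 507 and 440.5 TPM with vehicle (0.98 ± 0.08, adjusted p = 2.2e-09). Tapbp, tapasin, which loads peptide onto class I, was at 138, 129.8, 130.5, 170.1 and 147 TPM with EIPA and 58.0, 54.5, 53.1, 63.2 and 55.5 TPM with vehicle (1.31 ± 0.12, adjusted p = 1.3e-08). Neither gene's groups overlap. The heavy chains H2-K1 (1.02 ± 0.18) and H2-D1 (0.71 ± 0.09), whose reads can be shared with relatives, the peptide transporter subunit Tap2 (0.68 ± 0.16) and the immunoproteasome subunit Psmb8 (1.06 ± 0.22) rose. Nlrc5, the transactivator of class I genes, was near 1 TPM and did not pass the test (0.23 ± 0.13, adjusted p = 0.16).

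Interferon-stimulated genes rose with them, 16 of 30 higher and 1 lower (median 0.56). Stat2 (1.32 ± 0.13) and Irf9 (0.52 ± 0.16), partners in the factor that type I interferon activates, rose, along with the membrane tether Bst2 (1.15 ± 0.24), the apoptosis-linked Xaf1 (0.98 ± 0.24) and Rtp4 (1.61 ± 0.33). Isg20, an exonuclease, fell (-0.64 ± 0.11). Among genes for chemokines, interleukins and TNF family ligands 9 of 26 rose and 3 fell. Cxcl16, a membrane-bound chemokine, rose from 8.32 ± 1.01 to 31.5 ± 3.88 TPM (1.80 ± 0.11), and Tnfsf9, a costimulatory ligand, rose (1.14 ± 0.12). Ccl2, which attracts monocytes, was at 19.8, 24.0, 24.3, 48.8 and 42.3 TPM with EIPA and 3.97, 3.04, 2.15, 3.49 and 2.37 TPM with vehicle (2.97 ± 0.21), spread more widely than most but without overlap. Its mean was 48.1 ± 6.68 TPM in the 4 mM vehicle libraries, against 31.8 ± 12.8 TPM with EIPA. The cytokine Clcf1 fell (-0.58 ± 0.09). The pentraxin Ptx3 fell (-0.73 ± 0.16) and the complement genes C2 (1.09 ± 0.16) and Cfp (0.68 ± 0.16) rose. Havcr2, the surface receptor TIM-3 known from T cells and macrophages, rose from 1.41 ± 0.505 to 12.7 ± 3.68 TPM (2.48 ± 0.18) and Itgb7, an integrin chain of lymphocytes, from 0.524 ± 0.184 to 7.47 ± 1.94 TPM (2.45 ± 0.17), again with Ptprc and Cd3e listed at 0.

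Among matrix proteases some collagenase and stromelysin genes rose, and the inhibitors Timp1 and Timp3 fell. Mmp10, a stromelysin, was at 22.2, 12.8, 15.8, 30.6 and 19 TPM with EIPA and 3.16, 2.25, 1.62, 2.12 and 1.64 TPM with vehicle (2.70 ± 0.20, adjusted p = 1.1e-09). Mmp3, the other stromelysin on the list (2.51 ± 0.25), and the collagenase Mmp13 (2.16 ± 0.25) rose. Mmp11 was called higher (0.33 ± 0.13), but the call was lost under 13 of 19 alternatives, and with array weights the value was 0.21. The inhibitor Timp1 was at 44.5, 39.1, 43.9, 63.9 and 54.5 TPM with EIPA and 99.2, 96.1, 112, 99.0 and 118 TPM with vehicle (-1.09 ± 0.12, adjusted p = 4.0e-07), and Timp3 fell (-0.41 ± 0.10), while Timp2 did not pass the test (-0.08 ± 0.05, adjusted p = 0.22) except with array weights (-0.15). The gelatinase Mmp2 (-0.43 ± 0.08) and the membrane-bound Mmp16 (-0.91 ± 0.08) and Mmp23 (-0.75 ± 0.15) fell. Membrane-bound Mmp14, the most abundant of the family, did not pass the test (-0.10 ± 0.10, adjusted p = 0.44) except with array weights (-0.19). The low-level members Mmp8 (0.648 ± 0.247 and 0.0940 ± 0.0619 TPM, 0.58 ± 0.22) and Mmp17 (1.04 ± 0.159 and 2.54 ± 0.402 TPM, -0.79 ± 0.10) were called higher and lower, by 1.93 and -1.20 with a pseudocount of 0.1, and the call of Mmp8 was lost under 7 alternatives. Mmp28 (2.47 ± 0.466 and 2.27 ± 0.147 TPM) and Mmp19 (16.3 ± 1.49 and 16.4 ± 2.81 TPM) did not pass the test. Over the 16 genes tested, with Reck, 5 rose and 6 fell. Of 15 ADAMTS genes 2 rose and 8 fell, Adamts5, an aggrecanase, falling most (-1.497 ± 0.10).

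Of 17 tested plasminogen and clotting genes 5 rose and 4 fell. Procr and Thbd encode surface receptors that restrain clotting. Procr, the endothelial protein C receptor, was at 62.0, 62.4, 63.7, 56.9 and 44.2 TPM with EIPA and 22.8, 24.9, 22.7, 18.2 and 16.1 TPM with vehicle (1.43 ± 0.16, adjusted p = 3.3e-07). Thbd, thrombomodulin, was at 63.4, 57.3, 61.1, 83.1 and 64.4 TPM with EIPA and 23.4, 24.2, 25.4, 22.1 and 32.8 TPM with vehicle (1.33 ± 0.10, adjusted p = 9.5e-10). F3, tissue factor, which starts clotting, fell (-0.59 ± 0.17), and Plaur, the urokinase receptor, rose (0.81 ± 0.13). Of the endothelial markers in the same libraries, Kdr (7.63 and 6.93 TPM) and Egfl7 (7.23 and 5.30 TPM) were expressed and Pecam1, Cdh5, Tie1 and Emcn stayed at or below 0.35 TPM. Vwf was at 0.46 to 0.97 TPM with EIPA and 0.01 to 0.27 TPM with vehicle. Tek was at 0.24 to 0.35 and 0.11 to 0.23 TPM in the same order. Pecam1 went the other way, at 0.02 to 0.05 and 0.08 to 0.35 TPM. Vwf, Tek and Pecam1 did not pass the filter on low values.

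Matrix genes fell beyond the collagens. Of 31 matrix glycoproteins 2 rose and 19 fell (median -0.74), against 2 and 14 of 24 collagen chains and 4 and 13 of 27 collagen-processing genes. Loxl2, a collagen cross-linker, was at 24.9, 20.4, 15.3, 22.8 and 23.03 TPM with EIPA and 134, 121, 102, 127 and 135 TPM with vehicle (-2.49 ± 0.11, adjusted p = 1.3e-13). Among the glycoproteins that fell were Fbln5 (-0.93 ± 0.12), Efemp2 (-1.20 ± 0.10), Ltbp1 (-0.74 ± 0.16) and Ltbp4 (-1.32 ± 0.13), all known from elastic fibres. Spp1, osteopontin, went the other way, from 45.6 ± 10.6 to 228 ± 54.1 TPM (2.29 ± 0.20), as did Nid1 of basement membranes (0.46 ± 0.08) and Sdc3 (0.67 ± 0.17). Tll1, a protease that matures procollagen, fell from 18.4 ± 1.21 to 3.84 ± 0.748 TPM (-2.01 ± 0.12). Cadherin Cdh3 fell (-1.80 ± 0.11).

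Lipid genes outside sterol and fatty acid synthesis also moved. Of 34 phospholipid genes 17 rose and 5 fell (median 0.21). Pcyt2, the rate-limiting enzyme of phosphatidylethanolamine synthesis, was at 133, 148, 138, 168 and 164 TPM with EIPA and 40.0, 44.5, 41.6, 40.5 and 36.5 TPM with vehicle (1.86 ± 0.08, adjusted p = 3.6e-13). Lpin1, a phosphatidate phosphatase, rose (1.58 ± 0.13). Of 32 sphingolipid genes 15 rose and 4 fell, with Sphk1, a sphingosine kinase (1.20 ± 0.13), Kdsr (0.85 ± 0.13) and Sgpl1 (0.74 ± 0.06) higher and Smpd3, a neutral sphingomyelinase, lower (-0.90 ± 0.06). The lipid droplet coats Plin2 (0.74 ± 0.09) and Plin3 (1.101 ± 0.10) rose, and Mgll (-1.38 ± 0.20) and Acadvl (-1.02 ± 0.10), of lipid breakdown, fell. Slc27a1, a fatty acid importer, rose from 7.19 ± 1.09 to 24.9 ± 3.82 TPM (1.66 ± 0.13).

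Among the 30 leading genes outside the sterol, fatty acid and contractile lists, several belonged to none of these programmes. Prl2c2, a proliferin of the prolactin family whose reads can be shared with near-identical copies, had the largest rise, 101, 74.4, 73.3, 59.1 and 31.5 TPM with EIPA against 4.18, 2.40, 2.09, 2.98 and 0.820 TPM with vehicle (4.29 ± 0.57, adjusted p = 3.3e-06). Its levels spread more than those of the other leading genes and the groups still did not overlap. Slco4a1, an organic anion transporter, rose from 1.39 ± 0.536 to 18.2 ± 4.38 TPM (3.004 ± 0.28). Tmem171 (2.51 ± 0.18, and 3.89 with a pseudocount of 0.1), Lipg, endothelial lipase (2.68 ± 0.12), Acsbg1, a fatty acid activating enzyme (2.26 ± 0.23), and Speer3 (2.42 ± 0.21) completed the genes that rose most. Among those that fell most were Nppb, which encodes a natriuretic peptide (-1.99 ± 0.20), Cdsn, corneodesmosin (-2.21 ± 0.23), Vat1l (-1.95 ± 0.19) and Pkhd1l1 (-1.94 ± 0.20). Bcl2l1, an anti-apoptotic member of the BCL2 family, was at 90.6, 97.0, 105, 112 and 81.0 TPM with EIPA and 30.1, 32.5, 28.0, 28.6 and 26.2 TPM with vehicle (1.70 ± 0.08, adjusted p = 1.3e-12), while the pro-apoptotic Bcl2l11 (0.68 ± 0.16) and Casp9 (0.89 ± 0.10) rose as well. Ciart, a repressor in the circadian clock, rose (0.89 ± 0.16) and Per2 fell (-0.74 ± 0.12). Of 643 long non-coding RNAs tested 111 rose and 135 fell, and the share that rose was 17.3% against 27.4% of all genes.

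EIPA and IL-1a were compared with separate vehicle libraries at different glutamine levels, so a difference between their responses includes that of the media. With IL-1a at 4 mM glutamine 35 of the 12350 genes were called (0.283%). The EIPA response differed from the IL-1a response in 28.9% of all 12350 genes (the interaction term of the same fit). Of the 35 genes called with IL-1a, 21 were called in the same direction with EIPA, which is 60.0% of the IL-1a calls and 0.35% of the EIPA calls. Ccl2 was one of them and rose by 1.504 ± 0.21 with IL-1a (adjusted p = 0.00043). With IL-1a Mt2 differed by 0.42 ± 0.17 (adjusted p = 0.65), Ddit4 by 0.30 ± 0.20, Tgfb2 by -0.15 ± 0.12 and Tapbp by 0.11 ± 0.12 (adjusted p = 1 for each of these 3), none of which passed the test. Since the leading genes were chosen for the size of their EIPA change, no test of the difference between the responses is given for them.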

How the data were processed

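RNA was sequenced from a mouse CAF line in 20 libraries, 5 in each of 4 groups, grouped by their labels. The deposited values are TPM, 1 column per library, which the authors made with RSEM on the mm10 genome build, per the submitters' processing notes. Tool versions, the aligner used and the gene annotation behind the values were not given in the sources used here. Columns sum to between 999999.47 and 1000000.84 TPM, so depth is unknown, and no counting interval can be given. Between 11749 and 11902 genes reached 1 TPM in each of the 10 libraries at 0.2 mM glutamine.

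A gene was tested if 5 or more of the 20 libraries had 1 TPM or more. Tests were run on log2(TPM + 1) with limma 3.58.1 (R 4.3.3), in one model of the 4 groups with an intensity trend. P-values were adjusted by the Benjamini-Hochberg method over all 12350 genes and called under 0.05. A fold change on this scale understates the change of low genes. EIPA and IL-1a responses were compared by the interaction of the same fit. The fit was tested on simulated data with known changes. Gene lists (88) are described by counts and medians without a test. The members and lists were chosen with earlier results of these data known. The genes named are, first, the 15 that rose most and the 15 that fell most among called genes whose higher group averaged 5 TPM or more and whose groups did not overlap, outside sterol, fatty acid and contractile lists. To these were added up to 4 called members per list and direction, sodium-proton exchangers, metallothioneins, MMPs and TIMPs, and known regulators, receptors or rate-limiting enzymes. Some genes that met the rule are not reported here.

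Coordinates are those of GENCODE M21, in which 32158 of 32285 gene IDs were found. RefSeq promoters (GRCm38.p6) matched 9644 of the tested genes and were searched with Python 3.11.15 for fixed motif letters. Alternatives were a pseudocount of 0.1, no filter or a mean of at least 5 TPM, median-of-ratios scaling, quantile normalisation, leaving out mitochondrially encoded genes, using only the 0.2 mM libraries, a replicate block, array weights, and leaving out each replicate.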

Additional observations from a re-analysis of the deposited data

Results flagged for a closer look

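Each of the 284 genes named was checked in the 5 EIPA and the 5 vehicle libraries at 0.2 mM glutamine for a highest or lowest library far from the other 4. A library stood apart in 55 of these 568 groups, since its gap to the nearest of the others was over 0.71 of the group's whole range (Dixon's criterion for 5 samples). Chance flags about 1 in 20 groups, and genes measured in the same libraries are not independent. All values are in TPM. Vehicle replicate 5 stood apart for 20 genes. It lay above the other 4 in Ctns (56.4), Flcn (96.7), Nog (14.0), Npc1 (48.5), Nrg1 (49.97), Sema3d (33.4), Slc39a10 (11.5), Smpd3 (40.3), Tap2 (5.85), Tfeb (16.5), Tgfb2 (28.3) and Tyro3 (9.94). The same library lay below the other 4 in Aldh1l2 (115), Atg3 (72.2), Bop1 (82.3), Chac1 (53.02), Ciart (44.4), G6pdx (31.2), Mmp19 (11.5) and Srm (259). Vehicle replicate 4 stood apart for 9 genes. It lay above the other 4 in Bst2 (86.9), Mmp16 (11.03), Polr1a (68.7), Smo (98.9) and Xaf1 (22.1). The same library lay below the other 4 in Ctsd (363), Fosl1 (19.9), Gpnmb (18.6) and H2-K1 (65.5). Vehicle replicate 3 lay above the other 4 in Nop56 (752) and below the other 4 in Tgfb1 (24.7). Vehicle replicate 2 lay above the other 4 in Slc26a6 (4.26).

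EIPA replicate 4 stood apart for 10 genes. It lay above the other 4 in Axl (466), Fstl1 (109.9), G6pdx (67.96), Nrp2 (40.5), Tcirg1 (70.5), Thbd (83.1) and Wnt5a (31.8). The same library lay below the other 4 in Ftl1 (5239), Nupr1 (228) and Tfeb (7.37). EIPA replicate 5 stood apart for 8 genes. It lay above the other 4 in Adsl (102) and Prps1 (49.2). The same library lay below the other 4 in Atg3 (43.3), Etv5 (33.8), Gla (42.4), Mbp (22.8), Npc1 (64.1) and Slc25a37 (80.8). EIPA replicate 2 lay above the other 4 in Bcl2l11 (20.9) and Nlrc5 (2.12). EIPA replicate 3 lay below the other 4 in Gss (12.3) and Tgfb1 (33.7). EIPA replicate 1 lay below the other 4 in Dusp8 (6.77). Vehicle replicate 1 stood apart for 0 genes.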

How the results depend on the processing

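EIPA against vehicle gave 5986 calls (3383 higher, 2603 lower), and under the 19 alternatives the 3 counts stayed within 1.5 times these values. The total was lowest at 5140 with a mean of at least 5 TPM, where fewer genes were tested, and highest at 7324 with array weights. Leaving out 1 replicate at a time gave between 5424 and 5849 calls, with 3081 to 3283 higher and 2333 to 2569 lower. The share of calls that were higher was 56.5%, and it was 49.4% with median-of-ratios scaling, 48.5% with quantile normalisation and 47.0% without the mitochondrially encoded genes. Median changes of all genes under these 3 scalings were -0.01, -0.01 and -0.02. With the replicate number as a block 6305 genes were called, and the count of genes whose responses to EIPA and IL-1a differ went from 3569 to 4000. The labels do not tie equal numbers to a shared batch, and same-numbered EIPA and vehicle libraries correlated, in their deviations from the group means, at 0.17, 0.06, 0.21, 0.32 and 0.23. All 5 correlations were positive, and EIPA replicates 1, 3, 4 and 5 were closest to the vehicle library of their own number. The fit without the block was kept because the labels give no batch. Whether equal numbers share a batch was not tested. Of the 52 gene lists described, 5 had the larger of their counts of higher and lower genes move by over 1.5 times, 4 with a mean of at least 5 TPM, where fewer genes were tested, and the ribosomal proteins with quantile normalisation (33 higher and 7 lower, against 50 and 4; 0 when 1 library was left out), and 24 had the smaller do so (14). Of 284 named genes, 272 kept their direction and their side of the threshold under every alternative that tested them. The call of Mtf1 was lost under 1 alternative and those of Car6, Egfl7, Mbp, Mmp11, Mmp8 and Slc9a9 under several, and Slc9a8, Timp2 and Mmp14 gained a call. Leaving out 1 library ended the call of Car6 for 8 of 10 libraries (values of 0.51 to 0.63), of Mmp11 for 7 (0.24 to 0.36), of Mmp8 for 6 (0.51 to 0.57) and of Slc9a9 for 7 (-0.33 to -0.25), and gave a call to Slc9a8 without EIPA replicate 4 (-0.28) or vehicle replicate 1 (-0.30). Mmp19, near 0 and never called, ranged from -0.1167 to 0.0431 over these, being positive without EIPA replicate 2 (0.0431) or 3 (0.0128) and without vehicle replicate 1 (0.0309), 2 (0.0084), 3 (0.0336) or 4 (0.0366), and Mmp28 was at -0.0013 with array weights. The alternatives named under the processing were all run. Since depth is not known, differences of genes near 1 TPM carry an unknown counting error.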

Other observations

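Several groups of genes outside the account above also leaned one way with EIPA at 0.2 mM glutamine. Of 28 hypoxia-response genes 13 rose and 1 fell (median 0.21), against 27.4% and 21.1% of all tested genes. Ak4, a mitochondrial nucleotide kinase, rose from 1.98 ± 0.216 to 4.28 ± 0.651 TPM (0.82 ± 0.19), Bhlhe40, a transcriptional repressor, rose (0.47 ± 0.06), and Arnt, the shared partner of the hypoxia-inducible factors, fell (-0.33 ± 0.08). Heat-shock proteins and chaperones counted 15 higher and 4 lower of 34, and only 1 was lower with no filter on low values or when any of EIPA replicates 3 and 4 and vehicle replicates 1 and 4 was left out. Hspa4l, a nucleotide exchange factor of HSP70, rose from 21.7 ± 1.80 to 56.4 ± 13.7 TPM (1.31 ± 0.19), and the constitutive Hspa8 rose (0.57 ± 0.07). In the endoplasmic reticulum the chaperone Hspa5 (-0.57 ± 0.09) and the factor Xbp1 (-0.55 ± 0.10) fell, while of 27 genes of the unfolded protein response 4 rose and 5 fell, or 11 and 5 with array weights.

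Proteoglycan genes fell with the rest of the matrix, 11 of 21 against 2 that rose. Ogn, a small leucine-rich proteoglycan of collagen fibrils, fell from 7.38 ± 1.81 to 1.33 ± 0.533 TPM (-1.85 ± 0.20), and the cell-surface glypican Gpc4 fell (-0.99 ± 0.07). Growth factor receptors leaned the other way, 9 higher and 2 lower of 23. Pdgfra, a receptor of platelet-derived growth factors, rose from 6.15 ± 0.877 to 14.8 ± 2.47 TPM (1.14 ± 0.18), and the TAM receptors Mertk (1.06 ± 0.09), Tyro3 (0.65 ± 0.12) and Axl (0.30 ± 0.09) all rose, Mertk from below 1 TPM and by 1.73 with a pseudocount of 0.1. In sterol handling after synthesis, 8 of 20 genes rose and 1 fell. The gene that fell was Abca1, the exporter that loads cholesterol onto apolipoproteins, at 0.390, 0.320, 0.360, 0.720 and 0.800 TPM in EIPA replicates 1 to 5 and 1.45, 1.44, 2.41, 2.82 and 3.23 TPM in vehicle replicates 1 to 5 (-1.08 ± 0.27, and -1.94 with a pseudocount of 0.1). Lrp8, a receptor of the LDL receptor family, rose most of that list (1.504 ± 0.11).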
